A study of Mus musculus with 18 samples.

Results

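The Hoxd cluster is a row of 9 homeobox genes (Hoxd1, Hoxd3, Hoxd4, Hoxd8, Hoxd9, Hoxd10, Hoxd11, Hoxd12 and Hoxd13) on mouse chromosome 2, and its expression was followed in 3 neural stem cell lines and in the astrocytes made from them. The members were taken by gene symbol, as all Hoxd genes of the cluster. Of the 9 genes, 7 were measured among the 27997 genes of the expression table, and Hoxd11 and Hoxd12 were not analysed here. Among the measured members, Hoxd9, Hoxd8, Hoxd4 and Hoxd3 passed the filter on low values, a normalised level of 10 (3.32 on the log2 scale) in at least 3 of 18 libraries, which 15448 genes passed in all. Hoxd13 reached that level in 1 library, and Hoxd10 and Hoxd1 in none.

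Hox genes encode transcription factors that give cells along the body axis their positional identity. The order of the genes on the chromosome matches the order in which they are used along the axis: members with low numbers, at the 3′ end of a cluster, are active from the hindbrain downwards, and members with high numbers, at the 5′ end, only in caudal regions such as the lumbar and sacral spinal cord, the limbs and the genital bud. The forebrain, including the hippocampus, forms in front of the Hox-expressing territory. Neural stem cells grown from a region often keep a part of its Hox code in culture, and Hox proteins act on DNA together with cofactors of the Pbx and Meis families.

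Libraries were made from bulk mRNA of adherent mouse cultures, with 3 libraries in each of 6 groups. The tdTomato line came from the spinal cord of DNGR-1 +/- Tom+/- mice and the EYFP line from that of DNGR-1 +/- EYFP+/- mice. In both, Cre recombinase under control of Clec9a, the gene for the dendritic cell receptor DNGR-1, switched on a Rosa26 reporter, and reporter-positive cells were sorted from neurospheres before expansion. The third line was hippocampal, labelled DNGR-1+/+, and per the study's methods came from mice with Glast-Cre, a floxed Huwe1 allele and a Rosa26 EYFP reporter. Neural stem cells (NSCs) were collected after 4 days in EGF, bFGF and laminin. Astrocytes were collected after 6 days with the growth factor BMP4 at 20 ng/ml. Each of the 3 lines is a single line, and its replicates were successive passages. Errors and p-values therefore describe the spread between cultures of a line and not between animals. Between a spinal cord line and the hippocampal line, region and genotype cannot be told apart, nor can the reporter where it differs. Between the spinal cord lines, the reporter cannot be told apart from other differences of the single lines.

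Values are on the log2 scale of the deposited table, in which the replicates of a group differed by a median of 0.0607 to 0.107 over genes. The study's methods give only an approximate number of reads per sample, and the depth of each library is unknown. In this table a gene without reads does not stand at 0 but at a low value of its own, so that the values of the hippocampal line given here may stand for few reads or none, and a difference against them is smaller than the difference in reads by an unknown amount. The forebrain factors Emx2 and Lhx2 were at 7.57 or more in every group, those from spinal cord included, although all 4 forebrain markers were called lower in tdTomato than in hippocampal NSCs and in the astrocytes of both spinal cord lines. Gfap, the astrocyte filament gene, rose from 9.06 to 15.14 in the tdTomato line, from 9.30 to 15.67 in the EYFP line and from 9.27 to 16.40 in the hippocampal line. Of the 6 astrocyte markers, 6 were called higher in tdTomato astrocytes than NSCs and 5 in the other lines, without Aldh1l1. Higher values were called for 6162, 5907 and 6027 of 15448 genes. Aldh1l1 was at 6.73 to 7.09 in spinal cord astrocytes and 10.01 to 10.68 in hippocampal ones. Against hippocampal astrocytes 5 markers were lower in the tdTomato line and 4 in the EYFP line, and 1 higher in each, where 4791 and 4244 of all genes were lower. All 4 markers of oligodendrocytes and all 3 of muscle were below the filter in every library. Of the leukocyte markers, Ptprc was at -1.41 or less in every group, Cd68 was between 5.04 and 5.92, and Xcr1 had group means of 1.43 to 1.80 in NSCs and of 3.27, 3.87 and 4.54 in tdTomato, EYFP and hippocampal astrocytes. Cd68 and Xcr1 were called higher in astrocytes of all 3 lines. The summed fibroblast markers ran highest in tdTomato astrocytes (5.58 to 5.92, against 4.19 to 4.40 in hippocampal astrocytes). The summed neuron markers were at 7.33 to 7.63 in tdTomato astrocytes, 7.02 to 7.19 in EYFP astrocytes and 5.47 to 6.39 in NSCs of all lines and hippocampal astrocytes. The 4 genes of this sum did not move together. From tdTomato NSCs to astrocytes, Rbfox3 went from 4.84 to 5.07 up to 7.02 to 7.44, and Syt1 from 4.10 to 4.45 up to 4.47 to 5.16. Snap25 went from 1.65 to 2.51 down to 1.40, and Stmn2 stayed at -1.42 or less. The part of these cell types in the Hoxd values was not tested.

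The promoter windows of the cluster, 250 bases before to 50 after the transcription start in RefSeq (GRCm38.p6), were matched for all 9 members. They are shown for the 6 members with a call between lines or fates, with matches to 5 short motifs in capitals. These motifs were the TATA box (TATAAA, in 13.6% of 32851 windows of all genes), the CCAAT box (CCAAT, 37.4%), the GC box (GGGCGG, 35.7%), the caudal site bound by Cdx factors (TTTATG, 11.9%) and a joint Hox and Pbx site (TGATNNAT, 8.85%), each read on both strands.
Hoxd13 promoter, chr2:74667975-74668274, + strand: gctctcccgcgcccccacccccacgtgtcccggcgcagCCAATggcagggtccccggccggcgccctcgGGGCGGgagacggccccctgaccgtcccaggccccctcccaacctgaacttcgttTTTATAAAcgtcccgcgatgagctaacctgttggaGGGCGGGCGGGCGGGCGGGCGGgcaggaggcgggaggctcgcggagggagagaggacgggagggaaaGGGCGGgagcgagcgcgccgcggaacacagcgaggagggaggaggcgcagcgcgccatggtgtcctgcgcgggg
Hoxd10 promoter, chr2:74691641-74691940, + strand: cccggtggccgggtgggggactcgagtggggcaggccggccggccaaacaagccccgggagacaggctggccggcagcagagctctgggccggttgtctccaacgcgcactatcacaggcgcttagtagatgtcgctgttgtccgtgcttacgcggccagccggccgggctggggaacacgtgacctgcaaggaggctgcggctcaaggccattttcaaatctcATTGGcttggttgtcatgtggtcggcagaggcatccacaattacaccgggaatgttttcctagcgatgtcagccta
Hoxd9 promoter, chr2:74697513-74697812, + strand: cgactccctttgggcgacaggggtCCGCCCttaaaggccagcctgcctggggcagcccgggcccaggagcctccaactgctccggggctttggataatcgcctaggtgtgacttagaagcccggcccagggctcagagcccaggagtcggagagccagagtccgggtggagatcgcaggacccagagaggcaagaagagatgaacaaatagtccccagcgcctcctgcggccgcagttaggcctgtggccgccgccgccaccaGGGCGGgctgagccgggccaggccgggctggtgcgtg
Hoxd8 promoter, chr2:74704365-74704664, + strand: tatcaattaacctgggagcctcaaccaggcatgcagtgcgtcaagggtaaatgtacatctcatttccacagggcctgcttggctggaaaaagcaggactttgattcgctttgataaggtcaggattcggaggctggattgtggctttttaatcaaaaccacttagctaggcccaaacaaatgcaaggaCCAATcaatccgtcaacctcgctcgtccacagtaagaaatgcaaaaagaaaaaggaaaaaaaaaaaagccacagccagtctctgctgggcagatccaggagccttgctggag
Hoxd4 promoter, chr2:74721728-74722027, + strand: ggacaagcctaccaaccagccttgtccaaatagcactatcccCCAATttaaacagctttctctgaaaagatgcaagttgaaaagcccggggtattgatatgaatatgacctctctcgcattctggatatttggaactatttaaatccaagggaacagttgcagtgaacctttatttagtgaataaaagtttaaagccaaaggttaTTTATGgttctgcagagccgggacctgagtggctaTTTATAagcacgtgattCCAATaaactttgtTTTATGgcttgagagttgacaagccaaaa
Hoxd3 promoter, chr2:74711743-74712042, + strand: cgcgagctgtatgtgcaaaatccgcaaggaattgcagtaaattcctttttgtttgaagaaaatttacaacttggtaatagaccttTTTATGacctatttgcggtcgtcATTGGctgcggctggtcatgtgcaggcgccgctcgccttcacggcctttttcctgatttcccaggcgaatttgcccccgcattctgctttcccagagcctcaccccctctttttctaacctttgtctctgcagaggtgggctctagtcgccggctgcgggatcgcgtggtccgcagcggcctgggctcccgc

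The windows differed in make-up along the cluster. That of Hoxd13 held 74.3% G and C, a share reached by 4.44% of all windows, and 7 GC boxes, most of them in an overlapping run, beside a TATA box that reads on both strands. The Hoxd9 window held 68.3% G and C and 2 GC boxes, and that of Hoxd10 held 62.7% with 1 CCAAT box. The window of Hoxd3 held 54.0% G and C, and those of Hoxd8 and Hoxd4 were poorer, at 46.7% and 39.7%, against a median of 52.7% over all windows. Hoxd8 carried 1 CCAAT box, Hoxd3 carried 1 CCAAT box and 1 caudal site, and Hoxd4 carried 1 TATA box, 2 CCAAT boxes and 2 caudal sites. The joint Hox and Pbx letters were in none of the 6 windows shown. CpG dinucleotides stood at 0.92 of the number expected from base composition in the Hoxd3 window and at 0.904 in that of Hoxd13. They stood at 0.754 in the Hoxd10 window, 0.573 in Hoxd9, 0.367 in Hoxd8 and 0.339 in Hoxd4, with a median of 0.384 over all windows. The window of Hoxd1, which is not shown, held 69.7% G and C.

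Hoxd9 and Hoxd8, the central genes of the cluster and typical of thoracic to lumbar levels, were the most abundant members. In tdTomato NSCs, Hoxd9 had log2 values of 7.81, 7.86 and 7.96, and in EYFP NSCs 7.77, 8.02 and 7.87. Hippocampal NSCs had 3.59, 3.59 and 3.57. Every spinal cord library lay far above every hippocampal one, and the spinal cord lines overlapped. Among astrocytes, Hoxd9 was at 8.23, 8.14 and 8.10 in the tdTomato line, 8.05, 7.99 and 8.08 in the EYFP line, and 3.84, 3.84 and 3.61 in the hippocampal line. The groups kept the same split, and the tdTomato astrocytes stood just above the EYFP astrocytes with no overlap.

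Hoxd8 showed the same split with a wider gap. Its log2 values were 8.28, 8.33 and 8.32 in tdTomato NSCs, 8.52, 8.41 and 8.32 in EYFP NSCs, and 3.94, 3.94 and 4.06 in hippocampal NSCs. In astrocytes they were 8.85, 8.98 and 8.85 (tdTomato), 8.73, 8.76 and 8.83 (EYFP) and 4.01, 4.01 and 4.10 (hippocampal). In both spinal cord lines all astrocyte libraries were above all NSC libraries, and in the hippocampal line the fates overlapped.

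Hoxd4 and Hoxd3, anterior genes used from the hindbrain and cervical cord downwards, were lower and more variable between replicates. Hoxd4 stood at 4.76, 4.58 and 5.05 in tdTomato NSCs, 4.69, 4.68 and 5.16 in EYFP NSCs, and 2.25, 2.25 and 2.23 in hippocampal NSCs. In astrocytes it stood at 5.42, 6.43 and 5.97, at 5.43, 5.80 and 5.70, and at 2.33, 2.34 and 2.27, in the same order of lines. The spinal cord lines overlapped within each fate, and the astrocytes of each lay above its NSCs. Hoxd3 followed Hoxd4 at slightly lower values: 4.38, 4.41 and 4.96 in tdTomato NSCs, 4.63, 4.70 and 5.11 in EYFP NSCs, and 2.16, 2.17 and 2.14 in hippocampal NSCs. In astrocytes Hoxd3 was at 4.81, 6.01 and 5.67 (tdTomato), 5.33, 5.74 and 5.28 (EYFP) and 2.25, 2.25 and 2.19 (hippocampal). The lowest tdTomato astrocyte library, replicate 1, fell within the range of the tdTomato NSCs for Hoxd3, whereas the EYFP astrocytes did not overlap the EYFP NSCs.

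Hoxd13, the last gene at the 5′ end and a marker of the most caudal structures, was detected above its lowest values in the tdTomato line alone among these 18 libraries. Its log2 values were 3.09, 3.32 and 3.53 in tdTomato NSCs and 1.26, 1.46 and 1.65 in tdTomato astrocytes. In the EYFP NSCs it was at 0.17, 0.16 and 0.19, and in the EYFP astrocytes at 0.17, 0.22 and 0.24. Hippocampal NSCs, at 0.21, 0.21 and 0.19, and hippocampal astrocytes, at 0.26, 0.27 and 0.22, were close to the EYFP values, so that all 12 libraries of these lines lay at 0.27 or less.

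Hoxd10, a lumbar gene involved in the identity of hindlimb motor neurons, had an intermediate pattern. It was at 2.28, 2.53 and 2.85 in tdTomato NSCs and at 0.71, 0.95 and 1.21 in EYFP NSCs, while hippocampal NSCs held 0.41, 0.41 and 0.40. The 3 lines thus did not overlap as NSCs. In astrocytes Hoxd10 was at 2.02, 1.47 and 1.30 in the tdTomato line, at 0.38, 0.42 and 0.43 in the EYFP line, and at 0.45, 0.45 and 0.42 in the hippocampal line, where the EYFP and hippocampal values overlapped. Hoxd1, the gene at the 3′ end, was between -2.14 and -2.06 in every library, which is next to the lowest values of the table.

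**Figure D1:**
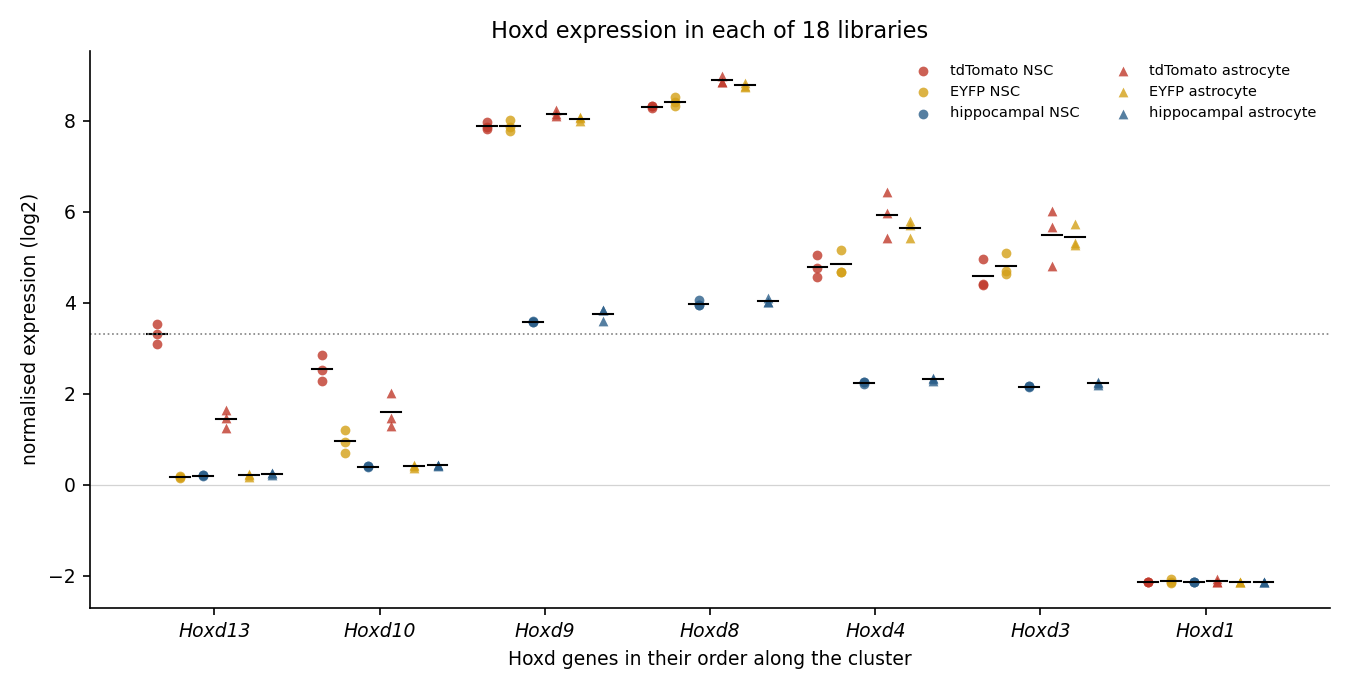
Normalised expression on the log2 scale (vertical axis) of the 7 measured Hoxd genes, ordered from the 5′ end of the cluster on the left, in each of 18 libraries. Circles are NSCs and triangles astrocytes, colours are lines, bars are group means (n = 3), and the dotted line is the filter at 3.32. Hoxd9 and Hoxd8 lie between 7.77 and 8.98 in the spinal cord lines, and Hoxd13 rises above 0.27 in the tdTomato line alone.

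The lines were then compared within each fate, with a limma fit over all 18 libraries in which a gene was called at a Benjamini-Hochberg adjusted p under 0.05. Hoxd9 and Hoxd8 passed the filter in all 18 libraries, but Hoxd4 and Hoxd3 only in the 12 from spinal cord, so that these 2 were tested because they are high there and the count of members is no result. All 4 were higher in spinal cord than in hippocampal NSCs. In the tdTomato line the differences were 4.30 ± 0.10 (SE) for Hoxd9, 4.33 ± 0.08 for Hoxd8, 2.55 ± 0.22 for Hoxd4 and 2.43 ± 0.25 for Hoxd3, with a largest limma adjusted p of 5.37e-07. Being higher by at least 1 was called for 3.27% of all genes tested. In the EYFP line the differences were 4.31 ± 0.10, 4.44 ± 0.08, 2.60 ± 0.22 and 2.65 ± 0.25 in the same order, with a largest limma adjusted p of 2.75e-07, against a background of 2.36% of genes. On the scale of the table these are 5.37-fold to 21.7-fold differences, and they understate the difference in reads. They also depend on the pseudocount: with one of 10 they ranged from 1.24 for Hoxd3 to 3.77 for Hoxd8 on the log2 scale.

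Astrocytes kept this difference. Against hippocampal astrocytes, the tdTomato line was higher by 4.39 ± 0.10 in Hoxd9, 4.85 ± 0.08 in Hoxd8, 3.62 ± 0.22 in Hoxd4 and 3.27 ± 0.25 in Hoxd3, where 5.35% of genes were higher by at least 1. The EYFP line was higher by 4.28 ± 0.10, 4.73 ± 0.08, 3.33 ± 0.22 and 3.22 ± 0.25, where 4.16% of genes were. The largest of these 8 limma adjusted p-values was 7e-09. With a pseudocount of 10 those of Hoxd3 and Hoxd4 came down to between 1.87 and 2.26. Each comparison with the hippocampal line shares its 3 libraries per fate with the other spinal cord line, so the 2 sets of differences are not independent.

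Between the spinal cord lines, none of the 4 tested members was called. In NSCs the tdTomato minus EYFP difference of Hoxd9 was -0.01 (95% CI -0.21 to 0.19) and that of Hoxd8 was -0.11 (-0.28 to 0.06), while 31.4% of all genes were called. For Hoxd4 it was -0.05 (-0.51 to 0.41) and for Hoxd3 -0.23 (-0.76 to 0.30). The wide intervals of Hoxd4 and Hoxd3 leave room for differences that these replicates could not have shown. In astrocytes the differences were 0.11 (-0.09 to 0.31) for Hoxd9, 0.12 (-0.05 to 0.29) for Hoxd8, 0.30 (-0.16 to 0.75) for Hoxd4 and 0.05 (-0.48 to 0.58) for Hoxd3, where 14.4% of genes were called. At an unadjusted p under 0.05 none of these 8 tests passed either.

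The 5′ members behaved differently. Hoxd13 and Hoxd10 were under the filter and could be tested only in the fit of all 27997 genes without it. There, Hoxd13 was higher in tdTomato than in EYFP NSCs by 3.14 ± 0.16 (limma adjusted p = 9.49e-10) and Hoxd10 by 1.60 ± 0.20 (limma adjusted p = 4.18e-05), in a comparison where 1.06% of genes were higher by at least 1. In astrocytes the differences were 1.25 ± 0.16 for Hoxd13 (limma adjusted p = 5.11e-05) and 1.19 ± 0.20 for Hoxd10 (limma adjusted p = 0.00111), where 0.911% of genes were. The EYFP values of Hoxd13 in both fates, and those of Hoxd10 in astrocytes, were at their lowest, so that these differences understate those in reads as well. In all 4 cases each tdTomato library was above each EYFP library, and the calls held without any library in turn. In bulk RNA, fewer cells with a transcript and less of it per cell cannot be told apart, which bears on these low values.

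Against the hippocampal line the tdTomato NSCs were higher by 3.11 ± 0.16 in Hoxd13 and 2.15 ± 0.20 in Hoxd10, where 1.99% of all genes were called as higher by at least 1 without the filter. The tdTomato astrocytes were higher by 1.21 ± 0.16 and 1.16 ± 0.20, against 3.45% of genes. The EYFP line did not pass in either gene: in NSCs the Hoxd10 difference was 0.55 (95% CI 0.12 to 0.99, limma adjusted p = 0.0914) and the Hoxd13 difference was -0.03 (-0.36 to 0.30), against 1.44% of genes. In EYFP astrocytes they were -0.03 (-0.46 to 0.40) and -0.04 (-0.37 to 0.29), against 2.59% of genes. Hoxd1 differed by no more than 0.03 in any of the 6 comparisons of lines, with no call.

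**Figure D2:**
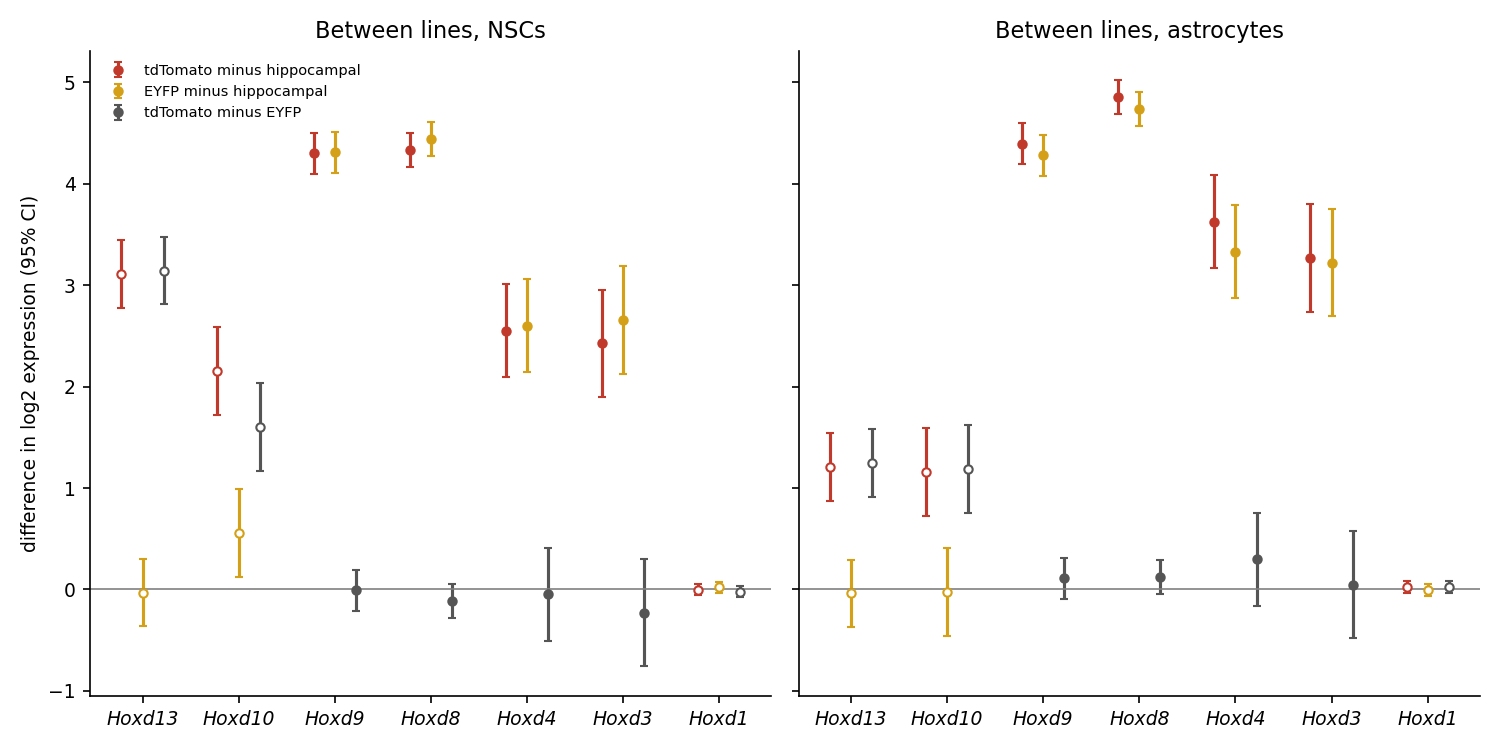
Differences in log2 expression between lines (vertical axis, limma estimates with 95% confidence intervals) for each Hoxd gene along the cluster, in NSCs (left) and astrocytes (right). Filled points were tested after the filter and open points without it. Hoxd9 and Hoxd8 lie more than 4 above the hippocampal line in both spinal cord lines, and the intervals of tdTomato minus EYFP include 0 from Hoxd9 to Hoxd1, against a difference of 3.14 for Hoxd13 in NSCs.

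From NSCs to BMP4-treated astrocytes of the tdTomato line, the 5′ members Hoxd13 and Hoxd10 fell and the members from Hoxd9 to Hoxd3 rose, while Hoxd1 at the 3′ end stayed at its lowest values. All 4 tested members rose from NSCs to astrocytes: Hoxd4 by 1.15 ± 0.22 (2.21-fold, limma adjusted p = 0.000107), Hoxd3 by 0.91 ± 0.25 (limma adjusted p = 0.00306), Hoxd8 by 0.59 ± 0.08 (1.50-fold, limma adjusted p = 2.3e-06) and Hoxd9 by 0.28 ± 0.10 (limma adjusted p = 0.0138). Higher values were called for 39.9% of all genes, so a rise as such was common. The Hoxd9 call was lost without tdTomato NSC replicate 1 (limma adjusted p = 0.054) or tdTomato astrocyte replicate 1 (0.055). In the fit without the filter Hoxd13 fell by 1.86 ± 0.16 (limma adjusted p = 1.62e-08) and Hoxd10 fell by 0.96 ± 0.20 (limma adjusted p = 0.000701), where 22.8% of genes were lower.

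In the EYFP line 3 of the 4 tested members rose. Hoxd4 rose by 0.80 ± 0.22 (1.74-fold, limma adjusted p = 0.00284), Hoxd3 by 0.64 ± 0.25 (limma adjusted p = 0.0292) and Hoxd8 by 0.36 ± 0.08 (1.28-fold, limma adjusted p = 0.000527). Hoxd9 did not pass, at 0.15 (95% CI -0.05 to 0.36, limma adjusted p = 0.15). Of all genes 38.2% were higher. The Hoxd3 call was lost without EYFP NSC replicate 1 or 2 or EYFP astrocyte replicate 2 (limma adjusted p up to 0.124). Without the filter Hoxd10 fell by 0.55 ± 0.20 (limma adjusted p = 0.0369), where 21.8% of genes were lower. That call was lost without EYFP NSC replicate 2 or 3 or any of the EYFP astrocyte replicates (limma adjusted p up to 0.149), and under the replicate block (limma adjusted p = 0.0515). Hoxd13, at its lowest values in both fates, differed by 0.04.

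In the hippocampal line none of the 4 tested members was called, in a comparison where 76.3% of genes were called. All 4 were at or near their lowest values in the hippocampal line (Hoxd4 and Hoxd3 below the filter, Hoxd9 and Hoxd8 with lowest values above it), where a fall could not have been seen and a small rise may not show. The differences were 0.18 (95% CI -0.02 to 0.38) for Hoxd9, 0.06 (-0.11 to 0.23) for Hoxd8, 0.07 (-0.38 to 0.53) for Hoxd4 and 0.07 (-0.46 to 0.60) for Hoxd3, and none had an unadjusted p under 0.05, although the astrocyte libraries lay just above the NSC libraries in Hoxd9, Hoxd4 and Hoxd3. Without hippocampal astrocyte replicate 3, Hoxd9 was called at 0.26 (limma adjusted p = 0.0253).

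The changes themselves were compared between lines. The change of the spinal cord lines, averaged, exceeded that of the hippocampal line by 0.90 ± 0.27 in Hoxd4 (limma adjusted p = 0.00989) and by 0.41 ± 0.10 in Hoxd8 (limma adjusted p = 0.00205), whereas 46.2% of genes passed this test. Hoxd3, at 0.70 ± 0.31 (limma adjusted p = 0.071, but 0.00716 without tdTomato astrocyte replicate 1 and 0.0411 without tdTomato NSC replicate 3, with a call in 6 of 28 settings), and Hoxd9, at 0.03 ± 0.12 (limma adjusted p = 0.833), did not pass. With quantile normalisation Hoxd9 was called at 0.40 (limma adjusted p = 0.0135) and Hoxd8 stood at 0.81. Without the filter the difference of changes was -0.95 ± 0.19 for Hoxd13 (limma adjusted p = 0.00109) and -0.79 ± 0.25 for Hoxd10 (limma adjusted p = 0.0273), where 26% of genes passed. The Hoxd10 call was lost without any of the hippocampal NSC replicates or hippocampal astrocyte replicate 1 or 2 (limma adjusted p up to 0.0537). The hippocampal values of all these members were at or near their lowest in both fates. A fall could not have been seen there, so that for Hoxd13 and Hoxd10 the difference restates the fall in the spinal cord lines, and for Hoxd9, Hoxd8, Hoxd4 and Hoxd3 it sets a rise against values at which a small rise may not show. Between the tdTomato and EYFP lines the rises of the 4 tested members did not differ past the threshold, with differences of 0.12 (95% CI -0.16 to 0.41) for Hoxd9, 0.23 (-0.01 to 0.46) for Hoxd8, 0.35 (-0.30 to 0.99) for Hoxd4 and 0.28 (-0.47 to 1.02) for Hoxd3, where 13.3% of genes passed. Hoxd13 differed by -1.90 ± 0.22 (limma adjusted p = 0.000125, without the filter), where 6.01% of genes passed, and Hoxd10 by -0.41 (-1.03 to 0.20, limma adjusted p = 0.506). As Hoxd13 was at its lowest values in the EYFP line, its difference likewise restates the fall in the tdTomato line.

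**Figure D3:**
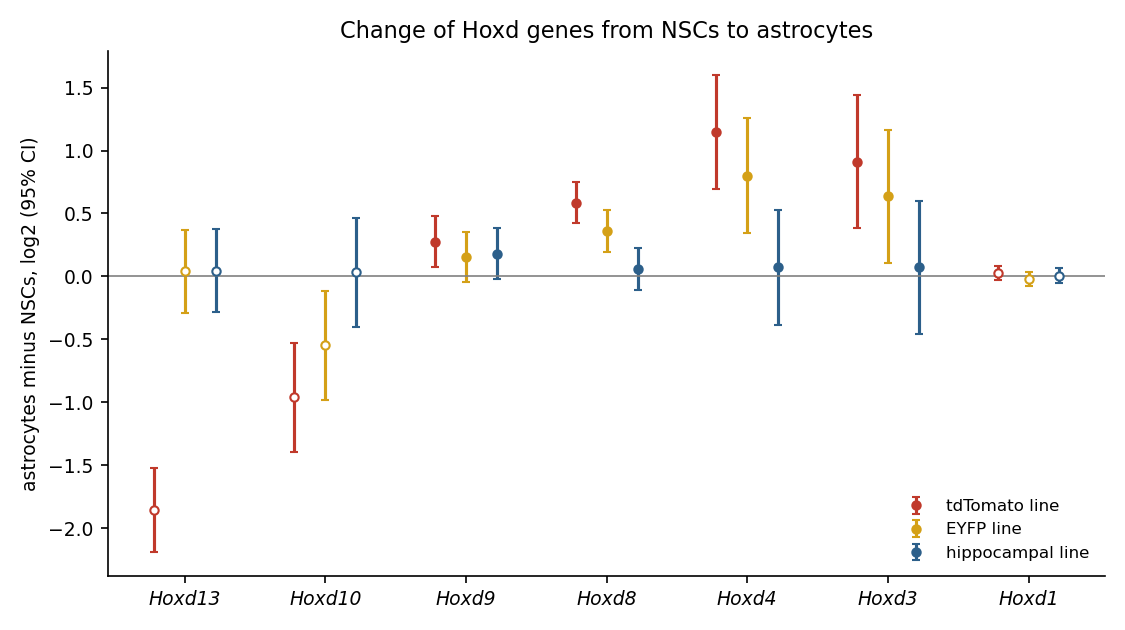
Change from NSCs to astrocytes on the log2 scale (vertical axis, limma estimates with 95% confidence intervals) of each Hoxd gene along the cluster in the 3 lines. Filled points were tested after the filter and open points without it. In the tdTomato line the change runs from -1.86 for Hoxd13 through 0.28 for Hoxd9 to 1.15 for Hoxd4, and in the hippocampal line all intervals include 0.

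To place the genes in order along the cluster, levels were compared per kilobase of exon, on the log2 scale. In tdTomato NSCs the order was Hoxd8 (6.85), Hoxd9 (6.78), Hoxd4 (3.23), Hoxd3 (2.52), Hoxd13 (2.00), Hoxd10 (1.69) and Hoxd1 (-3.04). Neighbouring ranges overlapped between Hoxd8 and Hoxd9 and between Hoxd13 and Hoxd10, and nowhere else. In EYFP NSCs the order was Hoxd8 (6.96), Hoxd9 (6.79), Hoxd4 (3.28), Hoxd3 (2.74), Hoxd10 (0.10), Hoxd13 (-1.14) and Hoxd1 (-3.01), with an overlap between Hoxd8 and Hoxd9. Levels were thus highest in Hoxd8 and Hoxd9 and lower on either side. Hoxd1 in all groups and Hoxd13 in the EYFP line stood at their lowest values, so that their places in the order are not levels.

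Hoxd8 and Hoxd9 also led in astrocytes. In the tdTomato line Hoxd8 reached 7.44 per kilobase and Hoxd9 7.06, followed by Hoxd4 (4.38), Hoxd3 (3.43), Hoxd10 (0.73), Hoxd13 (0.15) and Hoxd1 (-3.01), with an overlap between Hoxd4 and Hoxd3. The EYFP line gave Hoxd8 (7.32), Hoxd9 (6.95), Hoxd4 (4.08), Hoxd3 (3.38), Hoxd10 (-0.45), Hoxd13 (-1.10) and Hoxd1 (-3.03), with no overlap between neighbours, but with Hoxd10 and Hoxd13 as low as in the hippocampal line. Dividing by the longest transcript in place of the merged exons left the order of the members as it was in these 4 groups, but separated Hoxd8 from Hoxd9 in NSCs and let Hoxd4 and Hoxd3 overlap throughout. In the hippocampal line the order of such low values was not read.

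The annotation limits what can be said of Hoxd3 and Hoxd4. On chromosome 2 (GRCm38, GENCODE M21, + strand) Hoxd3 spans chr2:74711927-74748442 and Hoxd4 spans chr2:74711929-74729160, because both include transcripts that start at a shared upstream exon, and the read-through gene Gm28230 spans chr2:74726728-74747918. Of all stretches of 75 bases in their transcripts, about the length of a read, 59.0% in Hoxd3, 43.9% in Hoxd4 and 91.6% in Gm28230 also occur in another of these genes, so that the split of reads between them is uncertain. Hoxd13 (chr2:74668310-74671599), Hoxd9 (chr2:74697727-74700208), Hoxd8 (chr2:74704615-74707933) and Hoxd1 (chr2:74762980-74765142) shared no such stretch, and Hoxd10 (chr2:74691924-74695105) shared 1.78% with the transcript Gm28309.

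The sum of Hoxd3, Hoxd4 and Gm28230, an alternative chosen after seeing the data, is free of that split. It stood at 6.11, 6.35 and 6.62 in tdTomato NSCs, 6.53, 6.46 and 6.69 in EYFP NSCs, 7.16, 7.80 and 7.68 in tdTomato astrocytes, and 7.15, 7.37 and 7.06 in EYFP astrocytes. Hippocampal libraries ranged from 3.82 to 3.93. The sum rose by 1.18 ± 0.16 in the tdTomato line (limma adjusted p = 1.95e-06) and by 0.63 ± 0.16 in the EYFP line (limma adjusted p = 0.00146), with astrocytes above NSCs in every library of both. The change of the spinal cord lines, averaged, exceeded that of the hippocampal line by 0.84 ± 0.19 in the sum (limma adjusted p = 0.00175). The tdTomato minus EYFP difference was -0.20 in NSCs (limma adjusted p = 0.369) and 0.35 in astrocytes (limma adjusted p = 0.159).

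Transcripts on the opposite strand differed in pattern. Hoxd3os1, an antisense RNA that overlaps Hoxd8 and the starts of Hoxd4 and Hoxd3, had group means of 6.10 and 6.18 in tdTomato and EYFP NSCs, 6.36 and 6.32 in their astrocytes, and 2.76 in both hippocampal groups. Haglr, a non-coding RNA between Hoxd3 and Hoxd1, was at 2.61 and 3.00 in the spinal cord NSCs, 3.53 and 3.25 in their astrocytes, and 1.37 and 1.42 in the hippocampal groups. Gm28793, an antisense transcript between Hoxd10 and Hoxd9, was between -1.23 and -0.73 in all 18 libraries, below the filter. Whether reads were counted by strand is not stated in the sources used here, so that reads of Hoxd8, Hoxd4 and Hoxd3 cannot be told apart from those of the overlapping antisense RNA. The genes flanking the cluster differed less between lines. Mtx2 was higher in the spinal cord lines than in the hippocampal line by 0.45 (tdTomato) and 0.23 (EYFP) in NSCs and by 0.28 and 0.29 in astrocytes, all called, and Lnpk was called higher in the tdTomato line alone, by 0.43 and 0.65. Lnpk, on the 5′ side, ranged from 7.08 to 8.42 over the 6 groups, and Mtx2, on the 3′ side, from 8.64 to 9.64, and both fell from NSCs to astrocytes in all 3 lines (by 0.48 to 0.91).

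Hox genes of the same number in different clusters are paralogues with overlapping functions, and the part that Hoxd contributed to each paralogue group varied along the cluster. On the linear scale per kilobase, Hoxd8 made up 34.0% ± 0.95 (SD, n = 3) of group 8 in tdTomato NSCs and 31.9% ± 2.25 in EYFP NSCs, beside Hoxb8 and Hoxc8, and 28.9% ± 0.96 and 32.6% ± 1.82 in their astrocytes. Hoxd9 made up 20.7% ± 0.52 and 22.9% ± 0.99 of group 9 in NSCs, and 10.8% ± 0.69 and 15.0% ± 0.91 in astrocytes, with no overlap between fates in either line. Over the same step Hoxb9 rose by 1.79 in the tdTomato line and 1.19 in the EYFP line, and Hoxc9 rose by 0.99 and 0.96.

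The anterior members were a small part of their groups. Hoxd4 took 5.89% ± 0.56 and 6.44% ± 1.22 of group 4 in NSCs and 11.8% ± 2.44 and 10.8% ± 0.96 in astrocytes, and Hoxd3 took 7.43% to 9.20% of group 3 over these 4 groups, with overlapping libraries in both lines. Hoxd10 stayed at 0.52% or less of group 10, in which Hoxa10 and Hoxc10 had log2 group means of 9.02 to 9.99 in the spinal cord lines. Hoxd13 made up 6.33% ± 0.47 of group 13 in tdTomato NSCs and 2.16% ± 0.61 in tdTomato astrocytes. Such shares were not read in the hippocampal line, where the Hoxd values were low, nor for group 13 in the EYFP line.

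**Figure D4:**
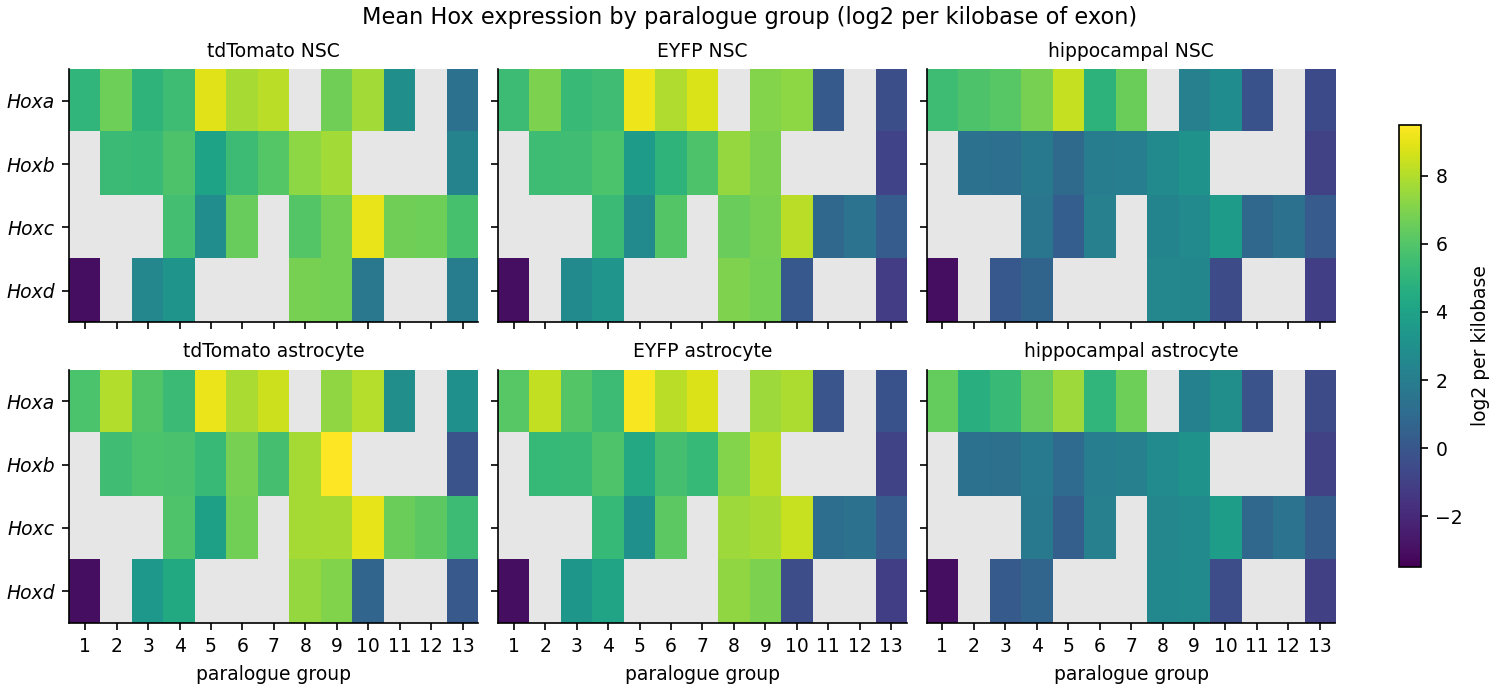
Mean log2 expression per kilobase of exon (colour, n = 3) of Hox genes by cluster (rows) and paralogue group (columns) in the 3 lines as NSCs (top) and astrocytes (bottom). Grey squares have no gene or no measured row. In the spinal cord lines the Hoxd row is brightest at groups 8 and 9, and groups 11 to 13 are bright in the tdTomato line alone, mainly in the Hoxc row.

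Of the 30 genes of the other Hox clusters 29 were tested. In NSCs 26 of them were higher and 3 lower in the tdTomato than in the hippocampal line (median difference 3.96, against 0.02 over all genes tested, of which 37.2% were called), and 20 were higher and 2 lower in the EYFP line (median 3.00, against 0.00, with 25.8% called). Of the 29, however, 12 were under the filter in every hippocampal library and were tested only because they are high in the spinal cord lines, so that these counts and medians are partly fixed by the filter. Between the spinal cord lines, 11 were higher and 6 lower in tdTomato NSCs, where 31.4% of all genes were called. The 6 with the largest differences belonged to groups 11 to 13, but passed the filter through tdTomato libraries alone, so that a higher value there was fixed by the filter: Hoxc11 by 5.84, Hoxc13 by 5.42, Hoxc12 by 5.20, Hoxb13 by 3.18, Hoxa11 by 2.78 and Hoxa13 by 1.76. The fall of Hoxd13 from NSCs to astrocytes in the tdTomato line was not general within group 13. Hoxb13 fell by 2.50, Hoxa13 rose by 1.69, and Hoxc13 moved from a mean of 6.99 to 6.70 with no call. The hippocampal line was not free of Hox expression either, as Hoxa3 was at 8.73 and Hoxa5 at 9.25 in its NSCs.

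Genes that work with or on Hox genes were read from lists. Of 9 cofactors, 5 rose and 3 fell from NSCs to astrocytes in the tdTomato line, where 78.4% of all genes were called, so that the share is near the background. Meis2, a partner of Hox proteins on DNA, rose by 1.24, while Pbx4 fell by 1.18 and Pbx3 fell by 0.68. In the EYFP line 3 rose and 4 fell, where 75.2% of all genes were called, with Meis2 at 0.77, Pbx4 at -1.15 and Pbx3 at -1.02. Between the spinal cord NSC lines, 3 of the 9 were lower in the tdTomato line, among them Meis1 (-0.65) and Meis2 (-0.47), near the 31.4% of all genes called. Of the 12 upstream regulators 5 passed the filter. Gdf11, a ligand that turns on posterior Hox genes in the trunk, rose by 1.05 in the tdTomato line, 1.31 in the EYFP line and 1.62 in the hippocampal line, and Rara, a retinoic acid receptor, rose by 1.20, 1.32 and 1.14. Cyp26b1 went from 2.16, 2.65 and 2.18 to 3.59, 4.64 and 3.93 in the tdTomato line. In the hippocampal line it went from 2.54, 3.52 and 3.33 to 5.12, 4.45 and 4.34. Its EYFP libraries overlapped between fates (2.10, 1.86 and 2.49 in NSCs, 2.93, 2.40 and 1.69 in astrocytes). Cdx2, a caudal factor, was at -1.88 or less in every group. Among tdTomato and EYFP NSCs, Rarg (by 0.72) and Gdf11 (by 0.27) were higher in the tdTomato line.

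Of the 12 chromatin regulators, all tested, 4 rose and 6 fell in the tdTomato line and 2 rose and 7 fell in the EYFP line, near the 78.4% and 75.2% of all genes called. Ezh2, the methyltransferase of Polycomb complex PRC2 that keeps Hox genes silent, fell by 2.41 and 2.09, and its partner Suz12 fell by 0.99 and 0.88. Kmt2a, which marks active Hox genes, rose by 0.63 and 0.31, and Ring1, a Polycomb ubiquitin ligase, rose by 0.56 and 0.42. In the hippocampal line, in which no Hoxd member was called, 3 of these genes rose and 7 fell, near the 76.3% of all genes called there. Ezh2 went from 11.36, 11.26 and 11.43 in hippocampal NSCs to 9.55, 9.28 and 9.38 in hippocampal astrocytes. Suz12 went from 11.05, 10.95 and 10.99 to 10.00, 9.96 and 9.94, and Ring1 from 8.95, 8.89 and 8.86 to 9.62, 9.65 and 9.58. Changes of these regulators were thus not particular to the lines in which Hoxd members rose. Across all genes tested the median change was 0.01 to 0.02 in the 3 lines.

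The genes whose pattern over the 18 libraries was most like that of a member were mostly Hox genes of other clusters. Among 7078 genes outside the locus whose group means spanned at least 1, those nearest to Hoxd9 were Hoxb4 (Pearson r = 0.997), Hoxa10 (0.997) and Gm14296 (0.996). Hoxd8 was nearest to Hoxa10 (0.997), Gm14296 (0.997) and Hoxa9 (0.997). For Hoxd4 they were Hoxc8 (0.988), Zfp973 (0.988) and Hoxc9 (0.983), and for Hoxd3 the same 3 genes (0.985, 0.984 and 0.981). These values describe likeness only, since the 18 points come from 6 groups of 3 lines and are carried by the gap between the hippocampal and the spinal cord libraries.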

How the data were processed

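Bulk mRNA of 18 libraries (6 groups of 3) was sequenced. The authors trimmed reads with Trimmomatic 0.36, mapped and counted them with STAR and RSEM 1.3.0 on Ensembl GRCm38 genes and normalised them with DESeq2 1.18.1 in R 3.4.3. The deposited values are log2 normalised expression, with 29.4% below 0, and the transform is not named in the sources used here. Depth is given in the study's methods only as an approximate number of reads per sample, and the number of replicates limits the precision. Groups came from the labels. From the log2 values, limma 3.58.1 (R 4.3.3) fitted 6 group means with a variance trend, after a filter at 10 (linear scale) in 3 libraries, with Benjamini-Hochberg adjustment over all 15448 genes, and again without the filter. The fit was tested on simulated data. Alternatives were other filters and pseudocounts, median centring, quantile normalisation, no trend, a replicate block and leaving out libraries. Summing Hoxd3, Hoxd4 and Gm28230, and these alternatives without the filter, were chosen after seeing the data. Promoters came from RefSeq, coordinates from GENCODE M21. The Hoxd genes were all named. From the other lists a selection of genes was named, mostly up to 4 called genes per comparison and not by size alone. Between the spinal cord NSC lines 6 paralogous Hox genes were named. The 3 genes of likest pattern were named for each member tested. Some listed genes are not reported here. The members and lists were chosen with earlier results of these data known.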

Additional observations from a re-analysis of the deposited data

Results flagged for a closer look

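The change from NSCs to astrocytes differed between lines by a test of the difference itself in 4 members. Between the spinal cord lines, averaged, and the hippocampal line it differed by 0.41 for Hoxd8 (limma adjusted p = 0.00205) and by 0.90 for Hoxd4 (limma adjusted p = 0.00989), where 46.2% of all genes passed, and in the fit without the filter, where 26% passed, by -0.95 for Hoxd13 (limma adjusted p = 0.00109) and by -0.79 for Hoxd10 (limma adjusted p = 0.0273). The Hoxd10 call held in 17 of 23 settings (limma adjusted p up to 0.0537). Between the tdTomato and EYFP lines it differed by -1.90 for Hoxd13 (limma adjusted p = 0.000125, without the filter, where 6.01% of genes passed). The hippocampal values of these genes and the EYFP values of Hoxd13 were at or near their lowest in both fates, so that no fall could have been seen there, and the differences of Hoxd13 and Hoxd10 restate the fall in the other line or lines.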

How the results depend on the processing

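The 4 members higher in the spinal cord lines than in the hippocampal line kept their direction and their call under every alternative that tested them, but not their size, which with a pseudocount of 10 came down from 2.43 to 1.24 for Hoxd3 and from 2.55 to 1.36 for Hoxd4 in tdTomato NSCs. With the filter at 100, Hoxd4 and Hoxd3 were no longer tested, and the count of members called was 2 in each of these 4 comparisons, 2 for the change with fate in the tdTomato line, 1 in the EYFP line and 1 for the spinal cord lines against the hippocampal line. With no filter Hoxd13 and Hoxd10 entered, and the count was 2 between the tdTomato and EYFP lines in each fate, 1 for the difference of their changes and 4 for the spinal cord against the hippocampal change. Quantile normalisation turned the hippocampal change negative (Hoxd9 -0.14, Hoxd8 -0.28, Hoxd3 -0.36, Hoxd4 -0.37), with 1 member called there and 4 against the spinal cord change; the cause was not tested. Without a variance trend 1 member was called in the hippocampal line. Leaving out each library gave counts of 0 to 1 there. It moved the tdTomato minus EYFP difference from -0.067 to 0.056 for Hoxd9 and from -0.18 to 0.11 for Hoxd4 in NSCs and from -0.21 to 0.39 for Hoxd3 in astrocytes, and the spinal cord minus hippocampal change from -0.042 to 0.074 for Hoxd9, with no call. The rise of Hoxd3 in the EYFP line lost its call with no filter (limma adjusted p = 0.057) and with quantile normalisation (limma adjusted p = 0.153). In settings without the filter that were added after seeing the data, Hoxd13 kept each of its calls. Hoxd10 lost its call between the spinal cord and hippocampal changes with median centring (limma adjusted p = 0.0518), and was called in EYFP against hippocampal NSCs without a variance trend (limma adjusted p = 0.0464). Median centring also called Hoxd1, which is at its lowest values, lower in astrocytes of all 3 lines (-0.29, -0.26 and -0.31). The library medians over all genes were 3.43 to 3.51 in NSCs and 3.67 to 3.87 in astrocytes. Centring subtracts these medians, so this call was not read as a change of Hoxd1. Same-numbered samples deviated together weakly within a fate (correlations 0.012 to 0.31 in 6 pairs of groups) and not between fates (-0.077 to 0.045), and none of the 15 pairs of groups was over 0.1 throughout, so the numbers were not taken as pairs. The replicate block changed no count of members over the filter (4 in tdTomato against hippocampal NSCs, 0 in tdTomato against EYFP NSCs). Without the filter, the block took away the call of Hoxd10 in the EYFP line (limma adjusted p = 0.0515). The depth of each library could not be assessed.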
